A study of Mus musculus with 6 samples.

Results

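Genes of the adherens and tight junctions were followed in mouse bladder tumor organoids, 10 of 51912 gene IDs in the deposited table: Cdh1, Cdh3, Epcam, Cldn1, Cldn3, Cldn4, Cldn7, Ocln, Tjp1 and F11r. They were chosen by name for their place in the junctions, with earlier results of these data known. Organoids are small cultures grown in 3 dimensions from tumor cells. All 6 libraries came from organoids of the C57BL/6 strain, 3 exposed to SRT1720, a compound developed to activate the deacetylase SIRT1, and 3 to vehicle. The sources used here give no dose, duration, sex, age or origin of the tumors. They do not state whether replicates were separate cultures or mice either, so a p-value reflects the spread among these 6 libraries alone, which may be technical.

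Epithelial cells hold together through a belt of adherens junctions, in which cadherins bind the same cadherin on the next cell and catenins tie them to actin. Above that belt lie the tight junctions, where claudins and occludin seal the gap between cells, JAM-A assists their assembly, and ZO-1 scaffolds them from inside. In the urothelium, the epithelium of the bladder, this seal is part of the barrier against urine, and loss of E-cadherin is a known feature of invasive carcinoma.

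The junction genes followed the individual library far more than the treatment. Cldn7 was near 0 in SRT1720 2 and Vehicle 1 and between 13.3 and 21.9 TPM in the other 4 libraries, and Cldn3 was at 0 in SRT1720 3 and Vehicle 3. None of the 10 genes passed limma's test between treatments, but neither did any of all 9287 genes tested. In none of the 10 did the treatment groups separate, against 19.9% of all genes tested. Each treated library had 1 vehicle library with nearly the same junction profile. The unit is called TPM as in the deposited table, though the values behave as reads per kilobase scaled to the depth of each library.

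The libraries were 18286476 to 22885351 reads deep, as recovered from the values, and 9002 to 9289 genes reached 1 TPM in each. Of 13 urothelial markers, 8 reached a mean of 1 TPM, their sum was 450.0 to 1924 TPM with SRT1720 and 296 to 1143 TPM with vehicle, and Upk3a, a uroplakin of the terminal umbrella cells, was at 0 in all 6 libraries. Among markers from outside the epithelium, 1 of 10 fibroblast (Vim), 2 of 10 leukocyte (Cd68 and Lyz2), 0 of 8 endothelial and 0 of 7 smooth muscle genes reached that level. Krt5, a basal keratin, was at 16.4 TPM in SRT1720 1 and 9.61 TPM in Vehicle 2 and at 425 to 1120 TPM elsewhere, so libraries of a group stood apart from each other. Every library is therefore given by its own value below.

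**Figure D1:**
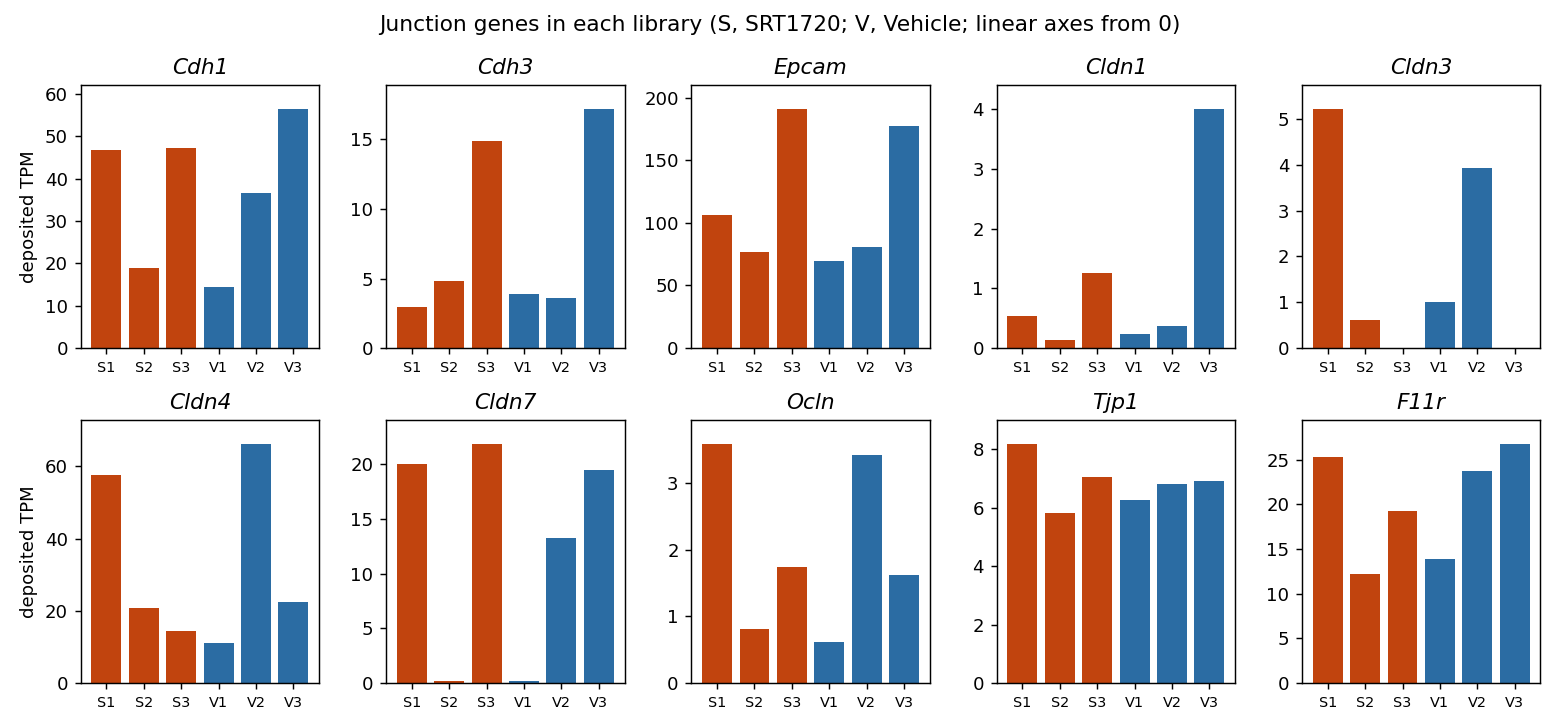
Deposited TPM of each of the 10 junction genes (bars, linear axes from 0) in the 6 libraries, SRT1720 in orange (S1 to S3) and Vehicle in blue (V1 to V3), 1 library a bar. Cldn7 is near 0 in S2 and V1, Cldn3 is at 0 in S3 and V3, and Tjp1 lies between 5.81 and 8.20 TPM throughout.

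Claudins, the 4-pass membrane proteins that form the tight junction strands, varied most. For Cldn7, whose protein binds EpCAM directly, SRT1720 libraries 1 to 3 held 20, 0.170 and 21.9 TPM and Vehicle libraries 1 to 3 held 0.207, 13.3 and 19.5 TPM. The near absence rested on 11 reads in SRT1720 2 and 14 in Vehicle 1, against 717 to 1384 reads in the other libraries. The highest library was 129 times the lowest. One library of each treatment was thus low and 2 of each were high, and the groups overlapped: their means were 14.0 ± 12 and 11 ± 9.86 TPM (SD, n = 3 each). The log2 fold change, taken on the log2(TPM + 1) scale as treated minus vehicle throughout, was 0.22 (SE 1.47; adjusted p = 0.97 by limma). In bulk RNA, fewer cells expressing a gene and less RNA per cell cannot be told apart, here or in any result below.

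Cldn3, which with claudin-4 serves as a receptor for Clostridium perfringens enterotoxin, was split along other lines. Its levels were 5.22, 0.606 and 0 TPM in SRT1720 libraries 1 to 3 and 1.0, 3.94 and 0 TPM in Vehicle libraries 1 to 3. With no read in SRT1720 3 or Vehicle 3, a count of 0 allows up to 3 reads, or 0.043 and 0.046 TPM. SRT1720 1, the highest, was at least 121-fold above the first of these limits and at least 113-fold above the second, counting error only. Its log2 fold change between treatments was 0.0053 (SE 0.80, adjusted p = 0.999 by limma). An exon of Cldn3 overlaps Wbscr25 on the opposite strand, and whether counting used strand is not given in the sources used here, so reads of the 2 genes cannot be told apart.

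Cldn4, the most abundant claudin of the 4, was at 57.5, 20.7 and 14.3 TPM in SRT1720 libraries 1 to 3 and at 11, 66.3 and 22.3 TPM in Vehicle libraries 1 to 3. SRT1720 1 and Vehicle 2, the libraries low in Krt5, stood above the other 4, as they did for Cldn3. These libraries were also the highest in Krt18, a keratin of simple and luminal epithelium, at 226 and 162 TPM against 25.3 to 57.6 TPM elsewhere. Other urothelial markers did not all share that order. Upk1b, a uroplakin gene, was lowest in these 2 libraries, at 1.47 and 0.660 TPM against 2.72 to 12.1 TPM. Krt8, which encodes the partner of keratin 18, was at 98.3 and 50.6 TPM in them, with SRT1720 3 at 54.5 TPM. Krt19, a keratin gene of simple epithelium, was at 71.3 and 37.0 TPM, with SRT1720 2 at 60.7 and Vehicle 1 at 43.8 TPM. The group means of Cldn4 were 30.8 ± 23.3 and 33.2 ± 29.2 TPM, with a log2 fold change of 0.014 (SE 0.73). Cldn1, a claudin without which the mouse epidermis loses its water barrier, was low throughout. It was at 0.541, 0.137 and 1.26 TPM in SRT1720 libraries 1 to 3 and 0.230, 0.366 and 4.01 TPM in Vehicle libraries 1 to 3, from 25 to 671 reads. Its highest values lay in SRT1720 3 and Vehicle 3, where Cldn3 was at 0.

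The sum of the 4 claudins was 83.2, 21.6 and 37.5 TPM in SRT1720 libraries 1 to 3 and 12.5, 83.9 and 45.8 TPM in Vehicle libraries 1 to 3. The 2 group means were alike, 47.4 ± 32.0 and 47.4 ± 35.7 TPM, while libraries within a group differed several-fold (exact two-sided permutation p = 1 on log2(sum + 1), where 3 against 3 cannot go below 0.1). The makeup of the sum also differed. Cldn4 gave 95.8% of it in SRT1720 2 and 88.5% in Vehicle 1, whereas Cldn7 gave 58.6% in SRT1720 3 and 42.6% in Vehicle 3. In SRT1720 1 and Vehicle 2, Cldn4 gave 69.1% and 79.0%, and Cldn7 24.0% and 15.8%. The difference in log2(TPM + 1) between Cldn4 and Cldn3 was 3.23 in SRT1720 1, 3.76 in SRT1720 2, 2.59 in Vehicle 1 and 3.77 in Vehicle 2. In SRT1720 3 and Vehicle 3, where Cldn3 had no read, the pseudocount sets that difference, so no test between treatments is given. These shares and differences rest on the gene lengths the authors used.

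Cldn4 and Cldn3 lie 39.3 kb apart on chromosome 5, Cldn4 on the reverse strand (134945119 to 134946934) and Cldn3 on the forward strand (134986214 to 134987472), in GENCODE M21 coordinates on GRCm38. Cldn7 lies on chromosome 11 (69964779 to 69967885, forward) and Cldn1 on chromosome 16 (26356642 to 26371841, reverse). The promoters of the 3 claudins with the largest range of log2(TPM + 1) over the libraries, and of Epcam, the most abundant junction gene, are shown because the results turn on these genes. Each is the 250 bases before a RefSeq start on GRCm38.p6, written on the strand of the gene, at chr17:87635729-87635978 (Epcam), chr5:134985964-134986213 (Cldn3), chr5:134946935-134947184 (Cldn4, reverse strand) and chr11:69964529-69964778 (Cldn7, the upstream of 2 starts). Capitals mark CAGGTG or its reverse complement CACCTG, the E-box letters that SNAI and ZEB repressors are known to bind.
Epcam: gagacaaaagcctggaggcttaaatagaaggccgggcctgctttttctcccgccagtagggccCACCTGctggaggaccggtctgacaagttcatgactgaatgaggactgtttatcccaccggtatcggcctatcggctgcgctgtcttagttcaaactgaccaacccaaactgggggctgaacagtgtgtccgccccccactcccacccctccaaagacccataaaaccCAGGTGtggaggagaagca
Cldn3: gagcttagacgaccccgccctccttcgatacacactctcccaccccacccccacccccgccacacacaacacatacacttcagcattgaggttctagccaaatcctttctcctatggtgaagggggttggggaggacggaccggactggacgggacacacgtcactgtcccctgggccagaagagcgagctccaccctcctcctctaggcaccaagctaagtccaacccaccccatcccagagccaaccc
Cldn4: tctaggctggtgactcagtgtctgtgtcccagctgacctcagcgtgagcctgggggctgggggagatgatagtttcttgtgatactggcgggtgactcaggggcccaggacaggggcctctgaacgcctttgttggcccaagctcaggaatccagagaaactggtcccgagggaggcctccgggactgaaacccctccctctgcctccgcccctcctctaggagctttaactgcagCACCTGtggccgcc
Cldn7: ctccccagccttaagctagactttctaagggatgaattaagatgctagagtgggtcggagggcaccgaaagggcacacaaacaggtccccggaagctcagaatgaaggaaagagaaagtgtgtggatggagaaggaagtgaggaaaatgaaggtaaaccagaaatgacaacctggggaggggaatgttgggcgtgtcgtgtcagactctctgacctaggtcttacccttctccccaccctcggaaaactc
Epcam held the letters at 187 and 19 bases before its start and Cldn4 at 14 bases, counted to the first base of the match, while this window held none for Cldn3 and Cldn7. The second start of Cldn7, within its transcribed region, had matches at 97 and 57 bases. Over the 8 junction genes found in the RefSeq table, which does not include Cdh1 and Cdh3, 5 of 10 starts held the letters, against 17.2% of 32851 promoter windows of the same length. The 5 include the second starts of Cldn7 and Ocln, whose windows lie mostly in annotated exons (221 and 155 of 250 bases). The first starts of these genes held none. None of the 10 held AACCGGTT, the palindrome bound by grainyhead-like factors, which 0.116% of all windows held. A match of letters is a description and does not show binding.

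Among the adherens junction genes, Cdh1 encodes E-cadherin, the main cadherin of epithelia. It was at 46.9, 19.0 and 47.3 TPM in SRT1720 libraries 1 to 3 and 14.5, 36.7 and 56.5 TPM in Vehicle libraries 1 to 3, each from at least 5133 reads. SRT1720 2 and Vehicle 1, the libraries with almost no Cldn7, were the lowest of their groups, and the highest library was 3.91 times the lowest. The means were 37.7 ± 16.2 with SRT1720 and 35.9 ± 21.0 TPM with vehicle, a log2 fold change of 0.16 (SE 0.56; adjusted p = 0.944 by limma). Cdh3, which encodes P-cadherin, a cadherin of basal epithelial cells, followed another order: 2.92, 4.8 and 14.9 TPM in SRT1720 libraries 1 to 3 and 3.91, 3.57 and 17.2 TPM in Vehicle libraries 1 to 3. Only SRT1720 3 and Vehicle 3 were high, and the log2 fold change was −0.061 (SE 0.69). The 2 cadherin genes neighbour each other on chromosome 8, Cdh3 from 106510891 to 106557297 and Cdh1 from 106603351 to 106670246, with 46.1 kb between them, and both are on the forward strand.

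The balance of the 2 cadherins, given as log2(TPM + 1) of Cdh3 minus that of Cdh1, was −3.61, −1.79 and −1.61 in SRT1720 libraries 1 to 3 and −1.65, −3.05 and −1.66 in Vehicle libraries 1 to 3. Cdh1 was thus above Cdh3 in all 6 libraries and most so in SRT1720 1 and Vehicle 2. The treatments did not separate (−2.33 ± 1.11 against −2.12 ± 0.80, exact permutation p = 0.7). Without SRT1720 1 the difference between treatments turned from −0.22 to 0.42.

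Epcam encodes an adhesion molecule of epithelial cells that stabilizes claudin-7 and is a standard marker of carcinoma cells. It had the highest level of the 10 genes, at 106, 76.8 and 191 TPM in SRT1720 libraries 1 to 3 and 69.4, 80.7 and 177 TPM in Vehicle libraries 1 to 3. SRT1720 3 and Vehicle 3 were again the highest of their groups. The lowest pair was SRT1720 2 and Vehicle 1, where Cldn7 was near 0, at 76.8 and 69.4 TPM of Epcam, with Vehicle 2 close at 80.7 TPM. The group means were 125 ± 59.3 and 109 ± 59.1 TPM, a log2 fold change of 0.22 (SE 0.46; adjusted p = 0.899 by limma). Epcam lies on chromosome 17 from 87635979 to 87651129, on the forward strand.

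Of the remaining tight junction genes, Ocln, encoding the 4-pass protein occludin, was at 3.60, 0.816 and 1.74 TPM in SRT1720 libraries 1 to 3 and 0.618, 3.43 and 1.63 TPM in Vehicle libraries 1 to 3. Its order over the libraries was SRT1720 1 and Vehicle 2 highest, SRT1720 3 and Vehicle 3 between, SRT1720 2 and Vehicle 1 lowest. F11r encodes JAM-A, an immunoglobulin-like adhesion protein, and was at 25.3, 12.2 and 19.2 TPM with SRT1720 and 13.9, 23.7 and 26.8 TPM with vehicle, by library number. Here too SRT1720 2 and Vehicle 1 were lowest, and the log2 fold change was −0.18 (SE 0.34). Tjp1, encoding the scaffold ZO-1, was the steadiest, at 8.20, 5.81 and 7.07 TPM with SRT1720 and 6.28, 6.82 and 6.91 TPM with vehicle. Its highest library was 1.41 times its lowest, and its log2 fold change was 0.055 (SE 0.17). Ocln lies on chromosome 13 (100496507 to 100552718, reverse), F11r on chromosome 1 (171437535 to 171464603, forward) and Tjp1 on chromosome 7 (65296165 to 65527781, reverse).

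Ordered by the mean over 6 libraries per length as deposited, Epcam came first at 117 TPM, followed by Cdh1 (36.8), Cldn4 (32.0), F11r (20.2), Cldn7 (12.5), Cdh3 (7.88), Tjp1 (6.85), Ocln (1.97), Cldn3 (1.79) and Cldn1 (1.09 TPM). The lowest library of Epcam lay above the highest of Cdh1, and the lowest of Tjp1 above the highest of Ocln, while all other neighbours in that order had ranges over libraries that overlapped. The lengths inferred from the deposited values differ for some genes from the union of annotated exons, and for Ocln the ratio was 1.83. With reads set against exon union length, Tjp1 stood in place 5 and Cldn7 in place 7, an exchange of their places, and the other 8 genes kept their places.

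Between treatments, limma called 0 of the 10 genes and 0 of 9287 genes tested (0%) at an adjusted p under 0.05. At an unadjusted p under 0.05 there were 0 of the 10, against 12.4% of all genes tested, and the groups did not overlap in 0 of the 10, against 19.9%. All 10 had a mean of at least 1 TPM and were tested. Log2 fold changes lay above 0 for 7 genes, against 54.8% of all genes tested, and below 0 for 3. Of the 7, Cldn3, Cldn4 and Tjp1 crossed to below 0 under another scaling. The median was 0.035, as it was over all genes tested. Adjusted p-values of the 10 ran from 0.853 (Cldn1) to 0.999 (Cldn3). Large spread stood behind these values: the standard errors of the log2 fold changes ran from 0.17 (Tjp1) to 1.47 (Cldn7), so a p that misses the threshold does not show that the treatment left a gene unchanged. On the log2 scale, the SD within groups had a median of 0.86 over the 10 genes and 0.25 over all genes tested. For Cldn7 it was 2.34, more than in 99.8% of genes tested, and for Tjp1 it was 0.16, more than in 23.4%.

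**Figure D2:**
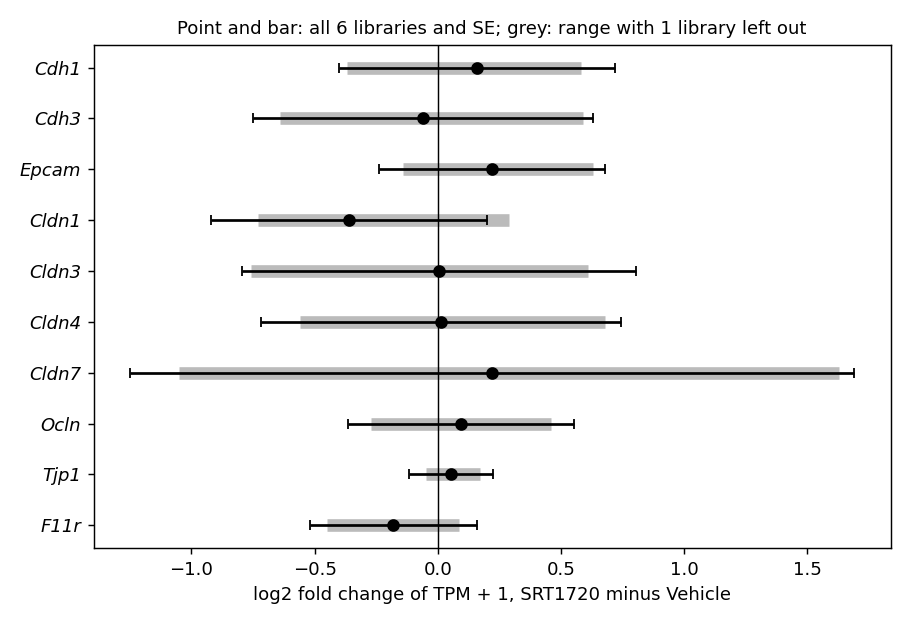
Log2 fold change of TPM + 1, SRT1720 minus Vehicle, for the 10 junction genes, with all 6 libraries (point, bar of 1 SE) and its range when 1 library is left out (grey). Every bar and every grey range crosses 0, the widest for Cldn7 (−1.05 to 1.63) and the narrowest for Tjp1 (−0.048 to 0.17).

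The sign of each fold change depended on single libraries. The log2 fold change of Cldn7 was −1.05 without Vehicle 1 and 1.63 without SRT1720 2. For Cdh1 it went from −0.37 without Vehicle 1 to 0.58 without SRT1720 2, and for Cdh3 from −0.64 without SRT1720 3 to 0.59 without Vehicle 3. Epcam ranged from −0.14 without SRT1720 3 to 0.63 without Vehicle 3. The value for Cldn4 was −0.56 without Vehicle 1 and 0.68 without Vehicle 2, that for Cldn3 −0.76 without SRT1720 1 and 0.61 without Vehicle 2. Cldn1 was at −0.73 without Vehicle 1 and 0.29 without Vehicle 3, Ocln at −0.27 without Vehicle 1 and 0.46 without Vehicle 2. F11r was at −0.45 without Vehicle 1 and 0.086 without SRT1720 2. With SRT1720 2 left out, the groups of Cldn7 and Tjp1 no longer overlapped, both higher with SRT1720, 2 of 10 genes against 24.0% of genes tested in that setting.

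The order of libraries was shared by part of the 10 genes. SRT1720 2 or Vehicle 1 was the lowest library for 8 of 10 genes, and together they were the 2 lowest for 7. The lowest pair was SRT1720 1 and Vehicle 2 for Cdh3, SRT1720 3 and Vehicle 1 for Cldn4, and SRT1720 3 and Vehicle 3 for Cldn3. The same counts over all genes tested are not given here. The highest library was SRT1720 3 or Vehicle 3 for 6 genes and SRT1720 1 or Vehicle 2 for the other 4. Measured as the root mean square difference of log2(TPM + 1) over the 10 genes, each library was nearest to a library of the other treatment: SRT1720 1 to Vehicle 2 (0.30), SRT1720 2 to Vehicle 1 (0.34) and SRT1720 3 to Vehicle 3 (0.45). Every other pair of libraries differed by 1.28 or more. Genes of large range weigh most in this measure, and the ranges on this scale ran from 0.43 (Tjp1) to 4.29 (Cldn7). Over all genes tested but these 10, the same libraries were nearest to each other, at 0.45, 0.41 and 0.43, but there the next nearest were at 0.46 to 0.57. This is a description of 6 libraries, and no label links libraries across treatments.

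By the same measure, on values centred on each gene's own mean, the nearest partners among the 10 were F11r with Tjp1 (0.31), Ocln with F11r (0.33), Cdh1 with F11r (0.38) and Epcam with Cldn1 (0.39). Cdh3 was nearest to Cldn1 (0.46), Cldn4 to Ocln (0.50) and Cldn3 to Cldn4 (0.60). For Cldn7 the nearest was Cdh1, at 1.24. Values were centred but not scaled, so this measure grows with a gene's range, which was 4.29 for Cldn7 and 1.89 for Cdh1. A large distance therefore does not mean another order of libraries, and both genes were lowest in SRT1720 2 and Vehicle 1. Nor does a small distance mean the same order where a gene varies little, as Tjp1 did with a range of 0.43. Among all genes tested, the 3 with profiles most like that of Cdh1 over the 6 libraries were Trim35 (0.10), Arhgef16 (0.18) and Syce2 (0.18). Those most like Cldn7 were the interferon-stimulated gene Isg15 (0.64), the carbonyl reductase gene Cbr1 (0.77) and the interferon-inducible gene Ifi27 (1.08). Isg15 was at 18.4, 1.53 and 15.6 TPM in SRT1720 libraries 1 to 3 and 0.808, 7.55 and 28.3 TPM in Vehicle libraries 1 to 3.

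Markers of other cell types were not even across these libraries. The summed fibroblast markers were 5.43, 17.1 and 0.134 TPM in SRT1720 libraries 1 to 3 and 21.2, 5.53 and 0.858 TPM in Vehicle libraries 1 to 3. They were highest where Cldn7 and Cdh1 were lowest, and most of the sum was Vim, an intermediate filament gene that carcinoma cells can also express, at 14.3 TPM in SRT1720 2 and 17.0 TPM in Vehicle 1. Col1a1, a collagen gene, was low but had its 2 highest values in the same libraries, 0.493 TPM in Vehicle 1 and 0.252 TPM in SRT1720 2, against 0.021 to 0.172 TPM elsewhere. Dcn, which encodes the matrix proteoglycan decorin, was likewise highest there, at 2.62 and 1.62 TPM, and was at 0 in SRT1720 3 and Vehicle 3. The summed leukocyte markers were 1.08 to 11.6 TPM with SRT1720 and 2.75 to 16.0 TPM with vehicle. Lyz2, a lysozyme gene of myeloid cells, was at 10.5 TPM in SRT1720 2, 14.3 TPM in Vehicle 1 and 0 in the other 4 libraries. Cd68, the other leukocyte marker with a mean of at least 1 TPM, did not follow that order. It was at 1.31, 0.730 and 1.03 TPM in SRT1720 libraries 1 to 3 and 1.45, 1.92 and 3.09 TPM in Vehicle libraries 1 to 3. Ptprc, which encodes the leukocyte antigen CD45, was at or below 0.013 TPM in every library, and Cd3e and Cd3g were at 0 in all. The summed endothelial markers were 0.020 to 0.038 TPM with SRT1720 and 0.021 to 0.028 TPM with vehicle, the smooth muscle markers 0.195 to 0.587 and 0.341 to 4.35 TPM. Cells of other types as a part of the junction pattern were not tested.

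Known repressors of Cdh1 varied between libraries as well. In the list of 10, 3 reached a mean of 1 TPM and were tested, and 0 passed limma's test, as over all 9287 genes tested. Snai1, which encodes the zinc finger repressor Snail, was at 0.673, 2.42 and 0.022 TPM in SRT1720 libraries 1 to 3 and 4.34, 0.995 and 0.048 TPM in Vehicle libraries 1 to 3. SRT1720 2 and Vehicle 1, the lowest of their groups in Cdh1, were the highest in Snai1. Tcf3, encoding the E-box binding protein E2A, was at 5.93 ± 1.15 with SRT1720 and 5.06 ± 1.66 TPM with vehicle. Below the filter, and chosen here after their values were seen, Zeb1 and Twist1 had almost no reads in SRT1720 3 and Vehicle 3. Zeb1 was at 0.286, 0.358 and 0.005 TPM with SRT1720 and 1.06, 0.867 and 0.013 TPM with vehicle. Twist1 was at 1.31, 0.948 and 0 TPM with SRT1720 and 1.42, 1.88 and 0 TPM with vehicle. The levels of Snai2, which encodes Slug, ran otherwise, at 1.98, 5.32 and 8.0 TPM with SRT1720 and 5.72, 0.95 and 12.5 TPM with vehicle. It was highest where Cdh3 was highest, and it too was chosen after its values were seen. The rest of the list, all below the filter, was divided. Zeb2 and Tcf4 were lowest in SRT1720 3 and Vehicle 3. Snai3 was highest there, at 2.15 and 1.61 TPM against 0.156 to 0.636 TPM elsewhere, as was Klf8, at 0.160 and 0.153 TPM. Twist2 showed neither order.

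**Figure D3:**
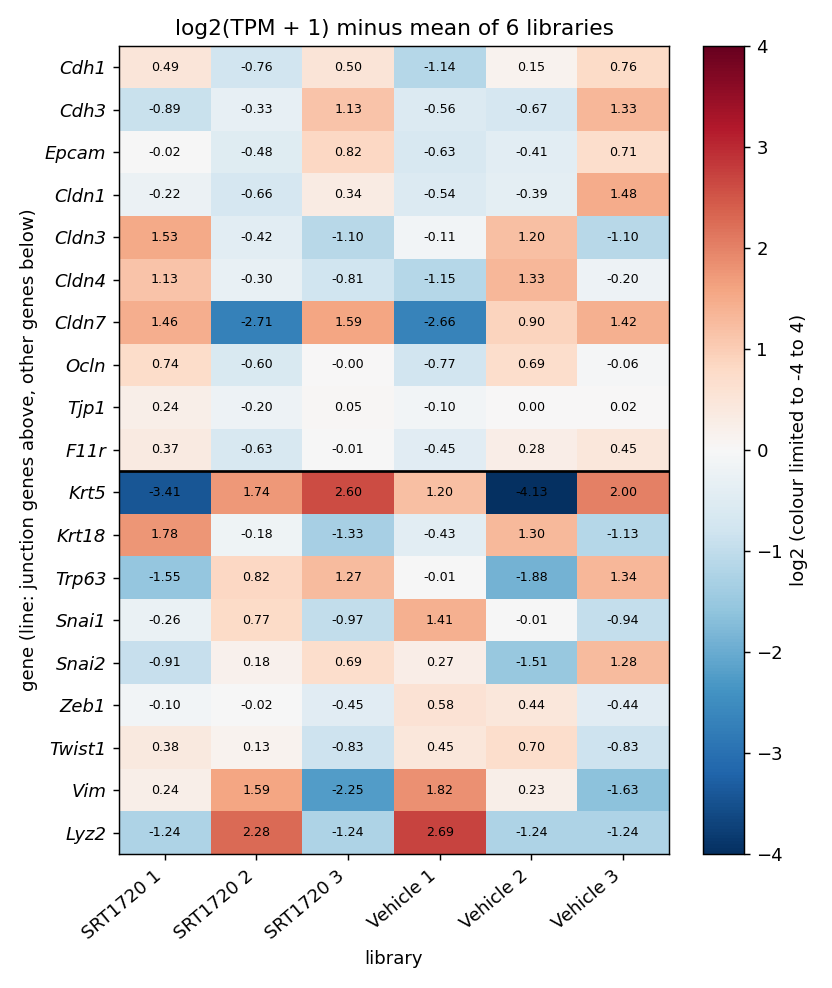
Log2(TPM + 1) minus the mean of the 6 libraries, for the 10 junction genes (above the line) and 9 other genes (below), by library. The other genes are named in the text except Trp63, a gene of the activator list. The colour scale ends at −4 and 4 and each cell carries its value, such as −2.71 for Cldn7 in SRT1720 2, −2.66 in Vehicle 1 and 1.59 in SRT1720 3.

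In the list of 15 activators of epithelial genes, 13 were tested and 0 passed, as over all 9287 genes tested. Their median log2 fold change was 0.21, against 0.035 over all genes tested. Esrp2, a splicing regulator of epithelial cells, was at 1.80, 2.14 and 2.83 TPM with SRT1720 and 0.716, 1.56 and 0.861 TPM with vehicle, groups that did not overlap (log2 fold change 0.68, SE 0.21, adjusted p = 0.328 by limma). Foxa1, a pioneer factor of luminal urothelium, was at 15.2 ± 7.89 with SRT1720 and 8.45 ± 3.76 TPM with vehicle, and its libraries overlapped. Klf5, encoding a Krüppel-like factor of epithelia, was at 24.6, 28.3 and 29.7 TPM with SRT1720 and 35.6, 30.6 and 30.5 TPM with vehicle (log2 fold change −0.22, SE 0.17, adjusted p = 0.643 by limma). Esrp2 and Klf5 were the 2 genes of the 13 whose groups did not overlap, 1 higher and 1 lower, against 12.1% and 7.75% of all genes tested.

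Of 98 other junction genes in 8 lists, 96 were in the table and 49 were tested, and limma called 0 of them. At an unadjusted p under 0.05 there were 4 of the 49, 1 higher and 3 lower with SRT1720, against 7.86% of all genes tested higher and 4.55% lower. The groups did not overlap in 8 of the 49, 2 higher and 6 lower, against 12.1% and 7.75% over all genes. Fold changes were above 0 in 17 and below 0 in 32, with a median of −0.10.

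Cdh13 encodes T-cadherin, which is anchored by a lipid and has no cytoplasmic tail. It was at 0.943, 0.799 and 2.11 TPM in SRT1720 libraries 1 to 3 and 3.63, 3.26 and 5.07 TPM in Vehicle libraries 1 to 3. All 3 treated libraries lay below all 3 vehicle libraries, with a log2 fold change of −1.15 (SE 0.25), yet it did not pass (adjusted p = 0.261 by limma). It was the only 1 of the 9 other cadherins to be tested. Cdh2, which encodes N-cadherin, stayed at or below 0.909 TPM, its highest levels being in Vehicle 1 and SRT1720 2, and was chosen here after its values were seen. Nectin2, encoding an immunoglobulin-like adhesion molecule, was at 4.10 ± 0.804 with SRT1720 and 6.22 ± 2.49 TPM with vehicle, and Afdn, the afadin that ties nectins to actin, at 4.04 ± 0.495 and 5.45 ± 0.528 TPM. Neither pair of groups overlapped (adjusted p = 0.521 and 0.402 by limma).

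Among catenins and linkers, 6 of 11 were tested and 0 had an unadjusted p under 0.05, against 12.4% of all genes tested. Lmo7, an actin-binding linker gene, was at 1.35 ± 0.286 with SRT1720 and 0.866 ± 0.324 TPM with vehicle, without overlap. Ctnnb1, which encodes β-catenin, was at 18.4 ± 1.02 and 16.3 ± 2.19 TPM, with overlap. Of the other claudins, 1 of 22 was tested: Cldn12, at 3.40, 1.20 and 1.03 TPM with SRT1720 and 1.49, 4.04 and 1.63 TPM with vehicle. Its high libraries, SRT1720 1 and Vehicle 2, were those of Cldn3 and Cldn4.

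Lsr, the lipolysis-stimulated receptor gene whose protein marks corners where 3 cells meet, was at 3.45, 2.95 and 4.58 TPM with SRT1720 and 1.75, 2.07 and 3.01 TPM with vehicle (log2 fold change 0.51, SE 0.20, adjusted p = 0.389 by limma). Its groups overlapped by 1 library. Cxadr, encoding the coxsackievirus and adenovirus receptor, was at 8.33 ± 3.34 against 12.7 ± 3.90 TPM.

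The scaffold list had 14 of 17 genes tested, 4 with fold changes above 0 and 10 below. Amotl1, an angiomotin family gene, was at 5.42, 5.20 and 6.49 TPM with SRT1720 and 7.91, 7.53 and 7.96 TPM with vehicle, without overlap (log2 fold change −0.40, SE 0.15, adjusted p = 0.361 by limma). Its paralogue Amotl2 was at 1.63 ± 1.46 against 3.54 ± 1.53 TPM, with overlap. In the polarity complexes, Mpp5, encoding the scaffold PALS1, was at 1.92, 1.38 and 1.16 TPM with SRT1720 and 2.44, 3.15 and 2.51 TPM with vehicle, also without overlap (log2 fold change −0.58, SE 0.17, adjusted p = 0.306 by limma). Prkci, which encodes an atypical protein kinase C of the PAR complex, was at 7.53 ± 1.35 against 9.53 ± 0.644 TPM. Of the EpCAM and matriptase partners, all 7 were tested and 0 had groups without overlap, against 19.9% of all genes tested. Spint2, encoding an inhibitor of matriptase, was at 22.1 ± 7.39 against 30.0 ± 8.43 TPM, and Adam17, a sheddase gene, at 3.39 ± 0.537 against 2.47 ± 0.538 TPM.

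**Figure D4:**
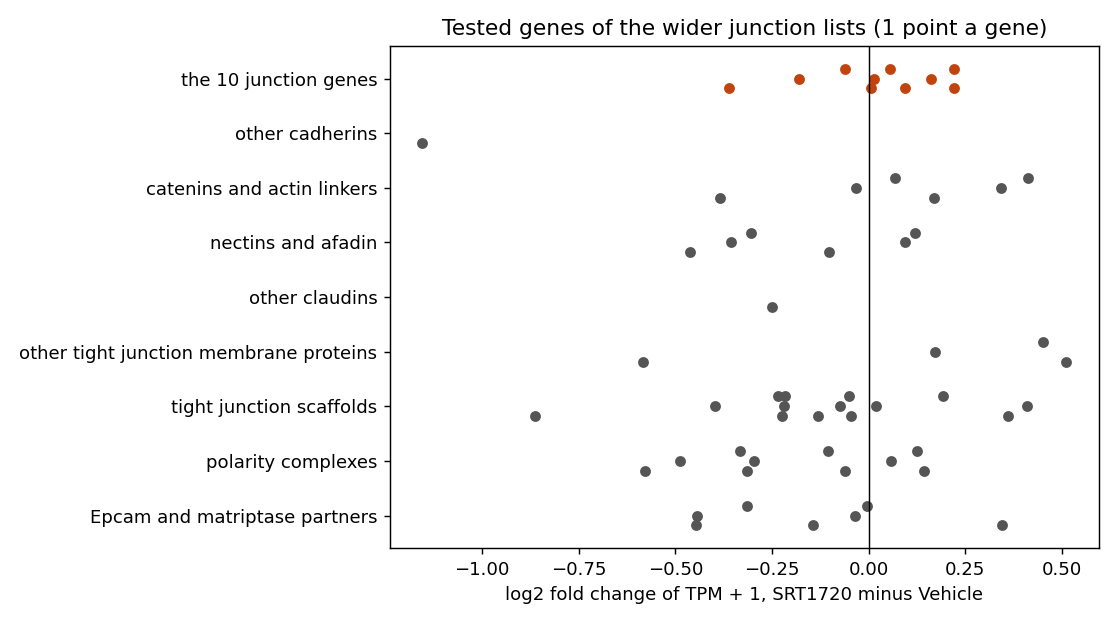
Log2 fold change of TPM + 1, SRT1720 minus Vehicle, of each tested gene (1 point) in the 8 wider junction lists (grey) and of the 10 junction genes (orange), with points spread vertically for sight only. The 10 junction genes lie between −0.36 and 0.22, and Cdh13, at −1.15, lies farthest from 0 in the wider lists.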

How the data were processed

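The authors deposited 1 table of TPM values for 6 bulk RNA-seq libraries, 3 per group, with 51912 Ensembl gene IDs. The submitters' processing notes list STAR 2.6.0 and the build GRCm38, without a role. Sources used here do not give the counting program, annotation or gene lengths. Groups and replicate numbers came from the sample titles, and names and positions from GENCODE M21, which matched 51633 IDs.

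The columns sum to 161231 to 171577 and are therefore not scaled to 1 fixed total. In genes of 1 exon the values fell on multiples of 1 step per library, 0.01697 to 0.021212 TPM for 1 read on 1 kb. For each of the 27713 IDs above 0, a whole-number length was found that turned every value into whole reads within 0.01, the annotated exon union where that did so (10991 IDs) and otherwise the smallest. That acceptance rule makes the match complete by construction. Libraries of a group differed beyond sampling noise (chi-square of their reads, median gene 12.0 to 25.1), so each counted as 1 sample.

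The 9287 genes whose mean reached 1 TPM were tested with limma 3.58.1 in R 4.3.3 (lmFit, eBayes with trend) on log2(TPM + 1), with Benjamini-Hochberg adjustment over all of them and a threshold of 0.05. The log2(TPM + 1) scale understates fold changes of low genes. Permutation tests of single values were exact and two-sided, and their smallest possible p was 0.1. Tables were handled in Python 3.11.15 with pandas 2.3.3, and figures drawn with matplotlib 3.10.9. Alternatives were another pseudocount and filter, scaling, a replicate block, left-out libraries and voom on recovered reads.

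The genes and lists were chosen with earlier results of these data known. All 10 junction genes are named, and from each other list the 2 tested genes with the smallest p. Genes named outside that rule, such as Klf5, were chosen after their values were seen. For likeness, the 3 nearest genes are named for Cdh1 and for Cldn7, the junction gene with the largest range.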

Additional observations from a re-analysis of the deposited data

How the results depend on the processing

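Over 14 alternatives, limma called 0 genes among all tested and 0 of the 10 junction genes in each, and 0 of the 10 had an unadjusted p under 0.05. Of all genes tested, the count at an unadjusted p under 0.05 was 1153 as reported, 2028 with no filter on low values, 498 at a mean of at least 5 TPM, where 7 of the 10 junction genes remained, and 523 without SRT1720 2. The median log2 fold change of the 10 genes ran from −0.37 to 0.19 and that of the wider junction lists from −0.24 to −0.019 when 1 library was left out. The number of junction genes whose groups did not overlap was 0 to 2 of 10 with 1 library left out, against 24.0% to 32.9% of all genes tested.

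Leaving out 1 library took the log2 fold change of Cdh1 from −0.37 to 0.58, of Cdh3 from −0.64 to 0.59, of Epcam from −0.14 to 0.63, of Cldn1 from −0.73 to 0.29, of Cldn3 from −0.76 to 0.61, of Cldn4 from −0.56 to 0.68 and of Cldn7 from −1.05 to 1.63. The ranges were −0.27 to 0.46 for Ocln, −0.048 to 0.17 for Tjp1, −0.45 to 0.086 for F11r, −0.60 to 0.076 for Cldn12, −0.03 to 0.37 for Tcf3 and −0.86 to 0.32 for Snai1. On log2(TPM + 1), the difference of Cdh3 from Cdh1 differed between treatments by −0.68 to 0.42, that of Cldn4 from Cldn3, set by the pseudocount where Cldn3 is at 0, by −0.51 to 0.46 and the log2 claudin sum by −0.59 to 0.74. Other settings reversed values near 0 only. Cldn3 went to −0.08 with a pseudocount of 0.1 TPM, −0.027 with median-of-ratios scaling, −0.036 with quantile normalization and −0.13 with voom. With quantile normalization Cldn4 went to −0.034 and Tjp1 to −0.0075, and median-of-ratios scaling took Cldn4 to −0.04 and the difference of Cldn4 from Cldn3 between treatments to −0.013. Without both SRT1720 1 and Vehicle 2, Cdh3 was at 0.019, Cldn3 at −0.16 and Tjp1 at −0.034. The cause of these reversals was not tested.

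With the replicate block, 0 genes were called over all tested and 0 of the 10 junction genes, and 1133 had an unadjusted p under 0.05. Whether the numbers pair the samples is not stated in the labels. Deviations from the group means correlated at −0.20, −0.26 and 0.79 for numbers 1, 2 and 3, and number 3 alone correlated best with its own number. These correlations cannot decide the pairing, since the deviations within a group are not independent of each other. SRT1720 1 correlated with Vehicle 2 at 0.72 and SRT1720 2 with Vehicle 1 at 0.68. The labels do not say whether such libraries share an organoid line. If they did, the unpaired standard errors and p-values would include differences between lines, which was not tested. Differences between genes and the claudin sum were not computed with voom. Depth limits Cldn7 in 2 libraries (11 and 14 reads), Cldn1 (25 reads in SRT1720 2) and Cldn3.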

Other observations

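Ctnnd1, which encodes p120-catenin, the partner that stabilizes cadherins at the membrane, was listed at 0.286 to 0.520 TPM, far below Cdh1. The length inferred from its deposited values was 28367 bases, against 7319 bases for the union of its annotated exons, and 382 to 759 reads were recovered per library. It was chosen after its values were seen.

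The plakoglobin gene Jup was at 9.05, 15.7 and 22.3 TPM with SRT1720 and 9.70, 6.50 and 19.7 TPM with vehicle. It was also chosen after its values were seen.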
